A study of Mus musculus with 16 samples.

Results

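Proximal tubule transporters and brush border genes, 37 in all, were followed across 16 mouse arrays. The genes were listed by name, and for each symbol the probe set with the highest mean log2 intensity was taken among probe sets that carry that symbol alone. A probe set of this kind was found for 36 of the 37, out of 19938 genes measured in the same way. The brush border peptidase gene Ggt1 had no single-symbol probe set in the annotation used here. Values are log2 of the deposited intensities, and a gene was called when its Benjamini-Hochberg adjusted p from limma, over all genes, was under 0.05.

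The primary kidney tumors came from reprogrammable mice given doxycycline (Dox) from 4 weeks of age for 7 days, and were taken 7 days after withdrawal. Normal kidney of the same age was the control, and the labels do not say whether the control mice carried the transgenes or received Dox. Primary liver tumors of reprogrammable mice were set beside normal liver. Secondary kidney tumors were grown under the skin of immunodeficient mice. Each of these 5 groups had 3 arrays, and 1 array held ES cells of 129xC57BL6 F1 background. The tissues were of 129xC57BL6 F1 or mixed 129 and C57BL6 background, because the mice had been made from the ES line. The tumors arose in chimeric mice, so cells of the ICR host strain may be present in them. Which factors the transgenes encode, and which cells express them, is not given in the labels.

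The proximal tubule is the first stretch of the nephron after the glomerulus. Its cells reclaim most of the filtered glucose, amino acids, phosphate, bicarbonate and protein through carriers and receptors on a dense apical brush border, and they secrete organic anions and cations taken up from the blood side. The early convoluted part and the later straight part use partly different carriers, and in mice several genes of the straight part are set by androgens. The factors HNF1 and HNF4 are known to drive many of these genes.

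RefSeq promoter sequences of GRCm38.p6, 250 bases before the annotated start, were at hand for 30 of the 36 genes. Some of these promoters are shown as a description of their letters, and how they were chosen is given below. Each is printed 5′ to 3′ on the gene's own strand with GTTAAT, or ATTAAC where it lies on the other strand, in capitals. GTTAAT is part of the longer site that HNF1 factors bind. Slc34a1 lies at chr13:55399398-55399647 (plus strand), Slc22a6 at chr19:8617746-8617995 (plus), Slc22a8 at chr19:8592932-8593181 (plus), Miox at chr15:89334223-89334472 (plus) and Slco1a1 at chr6:141946963-141947212 (minus).

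Slc34a1: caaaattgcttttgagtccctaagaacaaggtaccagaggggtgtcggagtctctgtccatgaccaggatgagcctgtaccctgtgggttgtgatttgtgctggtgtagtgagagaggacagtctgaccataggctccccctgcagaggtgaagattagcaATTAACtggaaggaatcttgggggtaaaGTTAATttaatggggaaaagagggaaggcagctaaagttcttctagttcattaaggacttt
Slc22a6: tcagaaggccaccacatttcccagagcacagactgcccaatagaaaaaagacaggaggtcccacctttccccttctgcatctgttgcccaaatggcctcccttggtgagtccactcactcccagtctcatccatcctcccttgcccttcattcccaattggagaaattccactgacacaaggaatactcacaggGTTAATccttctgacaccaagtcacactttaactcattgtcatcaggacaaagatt
Slc22a8: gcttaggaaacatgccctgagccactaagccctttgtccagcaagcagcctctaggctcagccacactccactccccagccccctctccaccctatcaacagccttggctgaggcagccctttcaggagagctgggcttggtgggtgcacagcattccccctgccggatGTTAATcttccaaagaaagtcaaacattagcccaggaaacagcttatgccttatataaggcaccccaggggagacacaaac
Miox: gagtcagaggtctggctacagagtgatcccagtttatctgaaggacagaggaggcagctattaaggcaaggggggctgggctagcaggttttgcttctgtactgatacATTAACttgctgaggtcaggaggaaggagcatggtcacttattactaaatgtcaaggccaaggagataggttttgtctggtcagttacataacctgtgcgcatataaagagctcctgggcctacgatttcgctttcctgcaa
Slco1a1: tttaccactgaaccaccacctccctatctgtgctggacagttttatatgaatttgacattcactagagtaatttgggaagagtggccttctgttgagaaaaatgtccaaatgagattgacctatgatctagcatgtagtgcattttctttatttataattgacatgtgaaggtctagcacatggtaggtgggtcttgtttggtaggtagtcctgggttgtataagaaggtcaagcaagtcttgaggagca

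On either strand, GTTAAT was found in 6 of 30 promoters (Slc34a1, Slc5a10, Slc7a7, Slc22a6, Slc22a8 and Miox), or 20%, against 7.49% of the promoters of 27025 genes. It was 1 of 16 overlapping patterns searched, and 7 of the 16 were found in at least 1 of the 30. GTTAAT and the first 4 promoters were chosen after the matches had been seen, and Slco1a1, which has no match in this window, was chosen for its values. TATAAA was found in 6 of 30 (20%, against 14.3% of all genes) and CAAAGG in 8 of 30 (26.7%, against 19.8%). The patterns searched for the longer HNF1 site were each found in 0 of 30, and in 0.0407% to 0.440% of all genes. At rates this low, 0 of 30 cannot tell these genes from others. The matches shown are therefore to the short pattern alone, not to the longer site. A match describes letters only.

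The 5 groups and the ES cell array separated widely in these genes. Their median log2 intensity per array was 12.73 to 12.88 in normal kidneys, 10.04 to 11.45 in kidney tumors, 6.12 to 6.28 in secondary kidney tumors and 6.78 on the ES cell array. Normal livers lay between 7.51 and 9.32 and liver tumors between 7.45 and 8.04. Median intensities over all probe sets were 191 to 226 per array, so the arrays were close in overall level. The values carry no detection call, so a gene near the low end cannot be told from background, and folds against such levels are compressed.

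**Figure D1:**
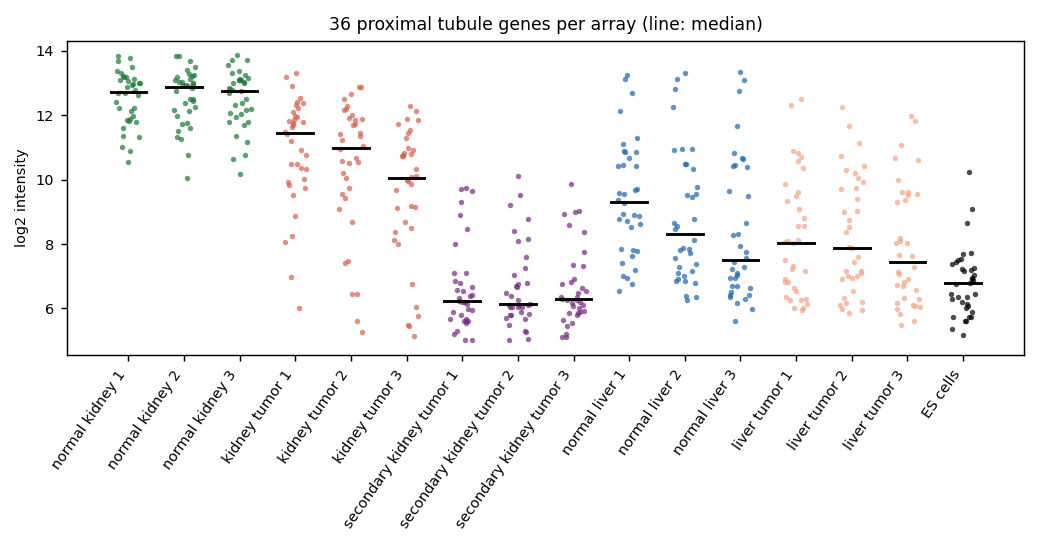
Log2 intensity (vertical axis) of the 36 proximal tubule genes on each of the 16 arrays, 1 point per gene, with the median as a line. Normal kidneys are highest, kidney tumors intermediate with tumor 3 lowest (median 10.04), and secondary kidney tumors lie at 6.12 to 6.28.

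Normal livers 1 and 2 stand apart in these genes. Slc34a1, the main phosphate carrier of the proximal tubule, read 11.29, 9.54 and 7.75 in normal livers 1 to 3. Kap, the kidney androgen-regulated protein, read 10.67, 9.77 and 7.08. In 24 of 36 genes normal liver 1 was above 2 and 2 above 3, an order found in 16.1% of all genes. Normal liver 1 exceeded normal liver 3 by more than 1 in 16 of 36, against 1.92% of all genes. The same order held in 8 of 9 loop of Henle and distal tubule markers. Umod, uromodulin of the loop of Henle, picked after its values were seen, read 9.40, 8.56 and 6.78. Normal liver 1 was also high in Adipoq, an adipocyte hormone (10.38, 5.99 and 5.81), likewise picked after its values were seen. Normal kidney 2 was high in the adipocyte markers too, with a summed intensity of 8251 against 1634 and 1660 in normal kidneys 1 and 3. A fit without normal kidney 2 and normal liver 1 is among the alternatives below. The hepatocyte list did not follow the falling order of normal livers 1 to 3, and its 9 genes were all higher in normal liver than in normal kidney. The spread among the normal livers enters the error of every contrast, since 1 spread per gene was estimated over all groups. Results are therefore given with and without those livers, or from the 9 kidney arrays alone, both chosen after this was seen.

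Normal kidney and normal liver were compared in these genes, which had been listed by name as kidney genes. Loop of Henle and distal tubule markers were higher in normal kidney in 9 of 9, and collecting duct markers in 10 of 11. The comparison therefore cannot tell the proximal tubule from other parts of the nephron. Normal kidney exceeded normal liver in 32 of 36 genes, against 21.4% of all genes called higher, with a median difference of 4.16 (-0.04 over all genes). Without normal livers 1 and 2, 31 were higher, against 14.6%. Slc22a30, Inmt and Slco1a1 did not pass (differences of 0.58, 0.22 and 0.37), and Azgp1, zinc-alpha-2-glycoprotein, was lower in kidney (-2.24 ± 0.29 SE, adjusted p = 3.34e-05), 1 gene against 16.4% of all genes. These 4 are thus genes that liver also gives high signal for, with normal liver means of 10.82, 13.31, 12.02 and 12.76 in that order.

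Primary kidney tumor samples kept part of the proximal tubule signal. In the fit over all 16 arrays, 29 of 36 genes were lower than in normal kidney and 0 were higher, against 28.1% of all genes lower and 21.7% higher. The median change was -1.87, against -0.11 over all genes, and 27 of the 29 fell by at least 2-fold. No tumor array overlapped a normal kidney array in 34 of 36, a pattern found in the lower direction in 39.3% of all genes. The 7 genes that did not pass were Slc34a1, Slc5a12, Slc13a1, Slc6a18, Lrp2, Cubn and Kap. With the 9 kidney arrays alone, 34 were lower (31.8% of all genes), and Slc13a1 (adjusted p = 0.123) and Slc6a18 (adjusted p = 0.200) did not pass. The call of Mep1a was lost without normal kidney 1, 2 or 3 or kidney tumor 2 or 3 (adjusted p = 0.0525 to 0.135), and that of Miox without normal kidney 1, 2 or 3 or kidney tumor 1 or 3 (adjusted p = 0.0591 to 0.0973). In whole tissue, fewer proximal tubule cells and less RNA per cell cannot be told apart.

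**Figure D2:**
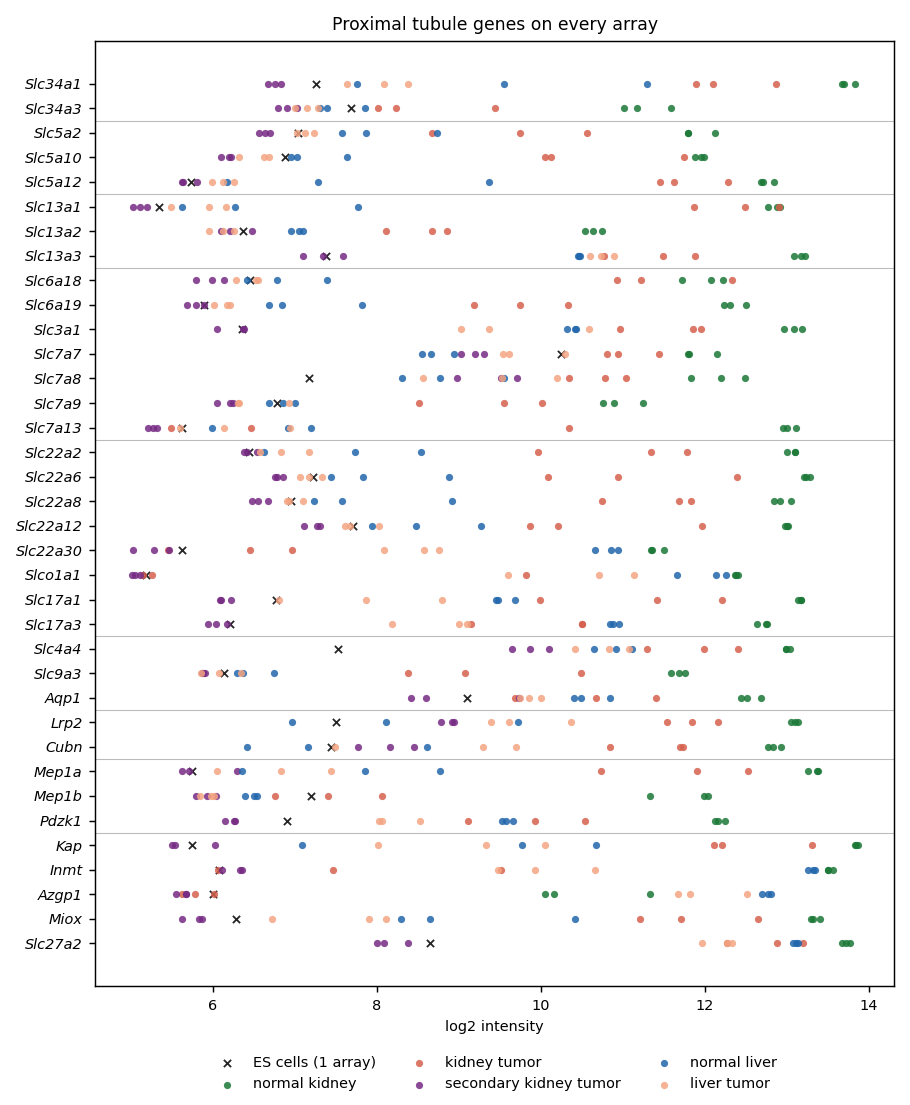
Log2 intensity (horizontal axis) of each of the 36 genes on every array, grouped by role from phosphate carriers at the top to other proximal tubule proteins at the bottom, with colours for the groups and a cross for the ES cell array. Normal kidney points are tight, kidney tumor points spread, and secondary kidney tumor points gather near the ES cell cross for most genes.

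Of the 2 phosphate carriers, Slc34a3 fell and Slc34a1 did not pass. Slc34a1 read 13.68, 13.83 and 13.70 in normal kidneys 1 to 3 and 12.10, 12.87 and 11.90 in kidney tumors 1 to 3. The tumors lay below all normal kidneys, with tumor 2 nearest. The difference was -1.45 ± 0.61 (SE, adjusted p = 0.0668), and with kidney arrays alone the adjusted p was 0.000558. Slc34a3, a second phosphate carrier of the brush border, read 11.01, 11.59 and 11.18 in normal kidney and 8.24, 9.44 and 8.01 in the tumors. It fell by 2.70 ± 0.29 (adjusted p = 9.00e-06), with tumor 2 again the highest tumor. The difference between the genes was not tested.

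Sugar and monocarboxylate carriers split between the tumors. Slc5a2, the glucose carrier of the convoluted part, read 11.80, 12.12 and 11.80 in normal kidney and 9.74, 10.56 and 8.67 in tumors 1 to 3, a fall of 2.25 ± 0.38 (adjusted p = 0.000265). Slc5a10, a mannose and fructose carrier, read 11.88, 11.99 and 11.95 against 11.75, 10.05 and 10.12. Tumor 1 was close to normal kidney (87.4% of the normal mean on the linear scale), and tumors 2 and 3 were at 26.9% and 28.3%. Slc5a10 fell by 1.30 ± 0.35 (adjusted p = 0.00694). Slc5a12, a lactate carrier, was at 46.0%, 72.7% and 40.8% of normal in tumors 1 to 3 (-0.96 ± 0.55, adjusted p = 0.167, or 0.00272 with kidney arrays alone).

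Sulfate and dicarboxylate carriers held the least changed gene. Slc13a1, the sulfate carrier, read 12.88, 12.92 and 12.77 in normal kidney and 12.91, 12.49 and 11.87 in the tumors. Tumor 1 lay inside the normal range and tumor 3 below it, and the difference did not pass (-0.44 ± 0.42, adjusted p = 0.399). Slc13a2 and Slc13a3, which take up citrate and other dicarboxylates at the apical and the basolateral side, fell by 2.09 ± 0.16 (adjusted p = 7.57e-07) and 1.78 ± 0.21 (adjusted p = 1.74e-05).

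Of the amino acid carriers, 6 of 7 fell. The neighbouring genes Slc6a18 and Slc6a19 on chromosome 13, both neutral amino acid carriers, differed in their values. Slc6a18 read 12.22, 11.73 and 12.08 in normal kidney and 12.33, 11.22 and 10.92 in the tumors. Tumor 1 was above every normal kidney, at 124% of the normal mean (-0.52 ± 0.31, adjusted p = 0.187). Slc6a19 read 12.23, 12.50 and 12.30 against 10.33, 9.74 and 9.19, with all tumors below all normal kidneys. It fell by 2.59 ± 0.29 (adjusted p = 9.65e-06). The difference between the 2 genes was not tested. Slc3a1 and Slc7a9, the subunits of the cystine transporter, fell by 1.49 ± 0.33 and 1.61 ± 0.30, and the basolateral carriers Slc7a7 and Slc7a8 by 0.85 ± 0.21 and 1.45 ± 0.39.

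Slc7a13, a further light-chain partner of Slc3a1 found in the straight part, was among the most uneven genes. It read 13.12, 12.95 and 13.00 in normal kidney and 10.35, 6.46 and 5.49 in tumors 1 to 3. Tumor 1 was at 15.6% and tumor 2 at 1.06% of the normal mean. Tumor 3 was below the ES cell array (5.62), near the low end of the values, so its 0.538% may be background. The mean fall was 5.59 ± 0.89 (adjusted p = 0.000179), and its SD was 2.57 in the tumors and 0.087 in normal kidney. That error pools the spread of all groups, so it understates the spread between the tumors for this gene.

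All 8 organic ion and urate carriers fell, and they held 4 of the 7 genes whose primary tumors ranged over more than 2 log2 units. Slco1a1, an organic anion carrier of the brush border, read 12.41, 12.37 and 12.38 in normal kidney and 9.82, 5.25 and 5.14 in tumors 1 to 3. Tumor 1 was at 16.9% of normal, and tumors 2 and 3 (0.712% and 0.659%) were as low as the ES cell array (5.18), where a level cannot be told from background. It fell by 5.65 ± 0.91 (adjusted p = 0.000201), again with an error pooled over all groups, while its SD in the tumors was 2.67. Slc22a30, a relative of the organic anion carriers, read 11.36, 11.50 and 11.34 against 6.97, 6.45 and 5.45, low in every tumor, a fall of 5.11 ± 0.29 (adjusted p = 8.25e-08). Its neighbour on chromosome 19, Slc22a8, a blood-side organic anion carrier with GTTAAT in its promoter, fell by 1.52 ± 0.35 (adjusted p = 0.00302). Slc22a6, the other main blood-side organic anion carrier and next to Slc22a8, read 12.39, 10.94 and 10.08 in tumors 1 to 3 against 13.21, 13.28 and 13.24. It fell by 2.10 ± 0.45 (adjusted p = 0.00178), and the tumors ranged from 55.5% down to 11.2% of normal. Slc22a12, the urate exchanger, and Slc17a1, an apical urate and phosphate carrier, ranged likewise, from 48.7% to 11.4% and from 51.7% to 11.1%. Slc22a2, the organic cation carrier, and Slc17a3, an anion carrier next to Slc17a1, fell by 2.04 ± 0.45 and 2.66 ± 0.31.

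Acid-base and water genes all fell. Slc9a3, the sodium-proton exchanger of the brush border, read 11.59, 11.76 and 11.68 in normal kidney and 10.49, 9.08 and 8.38 in the tumors, falling by 2.36 ± 0.37 (adjusted p = 0.000162). Slc4a4, the bicarbonate exit carrier, fell by 1.11 ± 0.24 and Aqp1, the water channel, by 1.96 ± 0.38.

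The endocytic receptors Lrp2 (megalin) and Cubn (cubilin), which take up filtered protein, ranged over 0.62 and 0.90 log2 units between the tumors. Lrp2 read 13.05, 13.14 and 13.10 in normal kidney and 11.85, 12.16 and 11.54 in the tumors, at 42.1%, 52.3% and 34.0% of normal. Cubn read 12.77, 12.93 and 12.83 against 11.70, 11.74 and 10.84. Both lay below normal kidney in every tumor but did not pass in the fit over all arrays (-1.25 ± 0.49, adjusted p = 0.0516, and -1.42 ± 0.57, adjusted p = 0.0529). Both passed with kidney arrays alone (adjusted p = 0.000124 and 0.00149).

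Brush border enzymes and the scaffold fell in 3 of 3 measured. Mep1b, a meprin subunit, read 11.99, 11.33 and 12.04 in normal kidney and 8.06, 7.41 and 6.75 in the tumors, falling by 4.38 ± 0.26 (adjusted p = 9.80e-08). Mep1a, its partner subunit, fell less, by 1.61 ± 0.56 (adjusted p = 0.0292). Pdzk1, which anchors apical carriers, fell by 2.32 ± 0.26 (adjusted p = 1.06e-05) and was highest in tumor 2.

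Among the other proximal tubule proteins, Inmt and Azgp1 fell most. Inmt, an indolethylamine methyltransferase, read 13.50, 13.50 and 13.57 in normal kidney and 9.51, 7.46 and 6.06 in tumors 1 to 3, falling by 5.85 ± 0.60 (adjusted p = 5.60e-06). Azgp1 read 11.33, 10.06 and 10.16 against 6.01, 5.62 and 5.78, all near the ES cell array (6.0) in the tumors (-4.71 ± 0.29, adjusted p = 1.19e-07). Kap read 13.85, 13.83 and 13.87 against 13.31, 12.21 and 12.12, with tumor 1 nearest to normal (-1.31 ± 0.73, adjusted p = 0.155, or 0.00501 with kidney arrays alone). Miox, the inositol oxygenase, read 13.32, 13.41 and 13.30 against 11.21, 12.65 and 11.71, with tumor 1 the lowest (-1.49 ± 0.51, adjusted p = 0.0268). Slc27a2, which activates and imports fatty acids, fell by 0.94 ± 0.18 (adjusted p = 0.000909).

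The fall differed from tumor to tumor in level and in which genes were hit. Tumor 3 was the lowest tumor for 33 of 36 genes, against 32.6% of all genes, and the highest for 0. Tumor 1 was highest for 24 and tumor 2 for 12. The median gene was at 42.9%, 32.1% and 16.9% of normal kidney in tumors 1, 2 and 3. The ranges ran from 4.05% (Azgp1) to 124% (Slc6a18) in tumor 1, from 0.712% (Slco1a1) to 77.5% (Slc13a1) in tumor 2 and from 0.538% (Slc7a13) to 50.2% (Slc13a1) in tumor 3, with the low ends near the ES cell level of each gene. The SD over the 3 arrays was larger in tumors than in normal kidney for 35 of 36 genes, against 11931 of 19938 genes. Its median was 0.73 in kidney tumors, 0.082 in normal kidney and 0.11 in secondary kidney tumors. The range over the tumors had a median of 1.38 (0.24 over all genes), and 7 of 36 genes ranged over more than 2, against 131 of 19938.

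**Figure D3:**
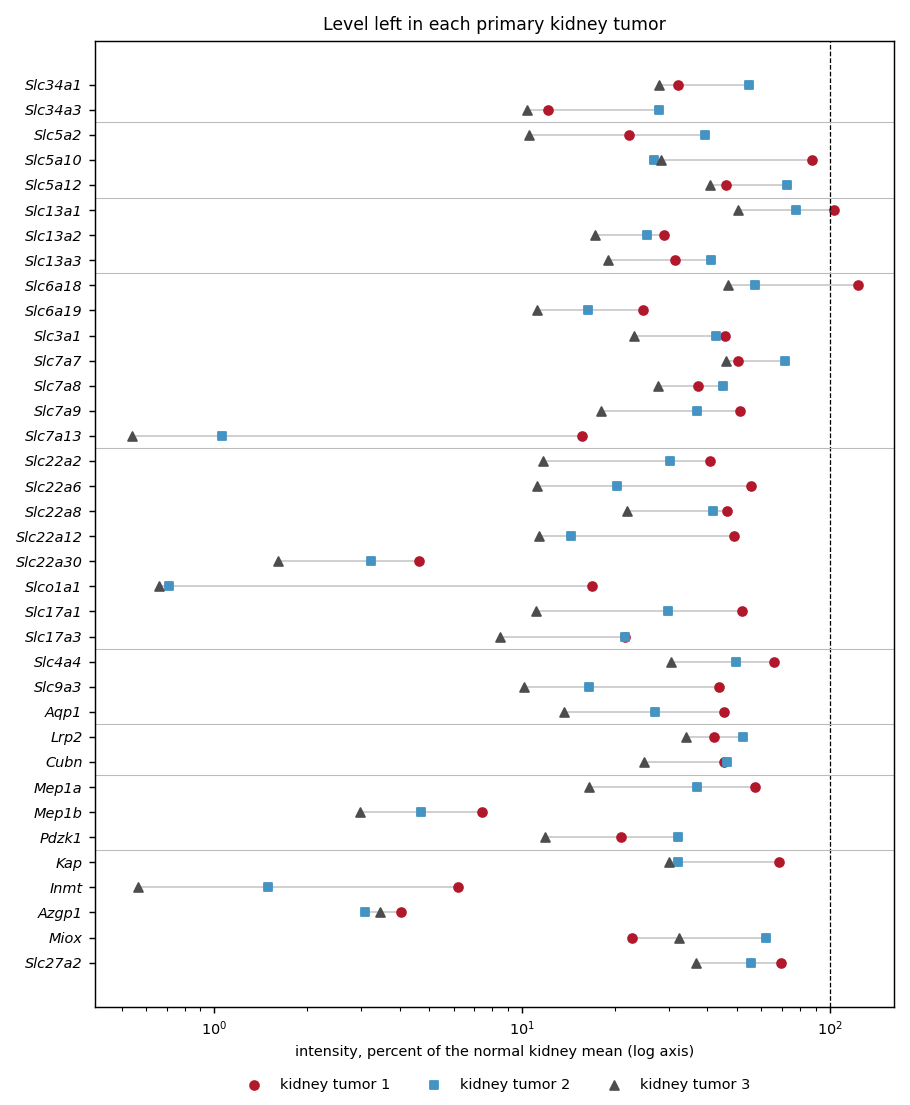
Intensity left in each primary kidney tumor as a percent of the normal kidney mean (horizontal log axis, dashed line at the normal mean), 1 row per gene, with the 3 tumors joined by a line. Tumor 3 is the lowest mark for 33 of 36 genes, and Slc7a13, Slco1a1 and Inmt span the widest ranges.

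By segment, all 4 straight-part genes (Slc5a10, Slc6a18, Slc7a13 and Slc22a30) were highest in tumor 1. The 8 convoluted-part genes divided evenly, with 4 highest in tumor 1 and 4 in tumor 2, and all 8 were lowest in tumor 3. Median levels of the straight-part genes were 51.5%, 15.1% and 15.0% of normal in tumors 1, 2 and 3. Those of the convoluted-part genes were 39.1%, 40.5% and 16.5%. The straight-part median in tumor 2 lies in a gap, since its 4 genes ran from 1.06% (Slc7a13) to 57.2% (Slc6a18). Slc7a13 and Slc22a30, the lowest straight-part genes there, are also known as male-biased in mouse kidney, so segment and sex bias overlap in this list. The 12 genes highest in tumor 2 included Slc34a1, Slc34a3, Slc5a2, Slc5a12, Slc13a3 and Miox. These differences between single tumors were not tested. The order was shared by other lists. Tumor 1 was the highest tumor for 11 of 11 collecting duct markers and 8 of 8 proximal tubule regulators. Tumor 3 was the lowest for 24 of 28 further proximal tubule transporters, 9 of 11 collecting duct markers and 7 of 9 loop of Henle and distal tubule markers.

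Several but not all sex-linked and sex-biased genes split between tumor 1 and tumors 2 and 3, and their part in the result was not tested. Sex is not given in the labels. Xist, the RNA of the inactive X chromosome, read 5.60, 10.84 and 10.19 in kidney tumors 1 to 3 and 5.65 to 5.86 in normal kidneys. The Y-linked gene Uty read 9.45, 8.94 and 8.18 in those tumors and 9.76 to 9.90 in normal kidneys. Of 10 genes known as male-biased in mouse kidney, 8 fell, with a median change of -3.91 (28.1% of all genes fell, with a median of -0.11), and 4 of the 10 (Kap, Slco1a1, Slc7a13 and Slc22a30) are proximal tubule genes of the present set. Their 2 largest falls are those of Slco1a1 and Slc7a13 given above. The metabolic genes Acsm3 and Cyp2j13, on the same list, read 11.16, 6.50 and 6.21, and 9.91, 7.53 and 7.00 in tumors 1 to 3. Of 3 female-biased genes measured, 2 rose, against 21.7% of all genes. Slc7a12, an amino acid carrier, read 6.87, 10.38 and 9.58 against 8.19, 6.42 and 6.82 in normal kidney (1.80 ± 0.68, adjusted p = 0.0425), and its call was not kept with kidney arrays alone, where 1 of the 3 rose. Cyp4a14 rose by 2.08 ± 0.35 (adjusted p = 0.000287). It read 12.34, 10.69 and 11.58 in tumors 1 to 3, highest in tumor 1, the other way from Slc7a12. Without kidney tumors 2 and 3, the 2 with Xist signal, 19 of 36 proximal tubule genes were lower than in normal kidney, against 15.5% of all genes. Tumor 1 was then the only primary tumor and is assumed to vary like the other groups. Among the lost calls, Slc7a8 stayed near its size (-1.40). The other lost calls came with smaller falls than with all 3 tumors, such as Slc5a10 (-0.19), Slc22a6 (-0.85), Slc22a12 (-1.04) and Slc3a1 (-1.13). Slc6a18 (0.32) and Slc13a1 (0.052) were on the other side of 0.

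**Figure D4:**
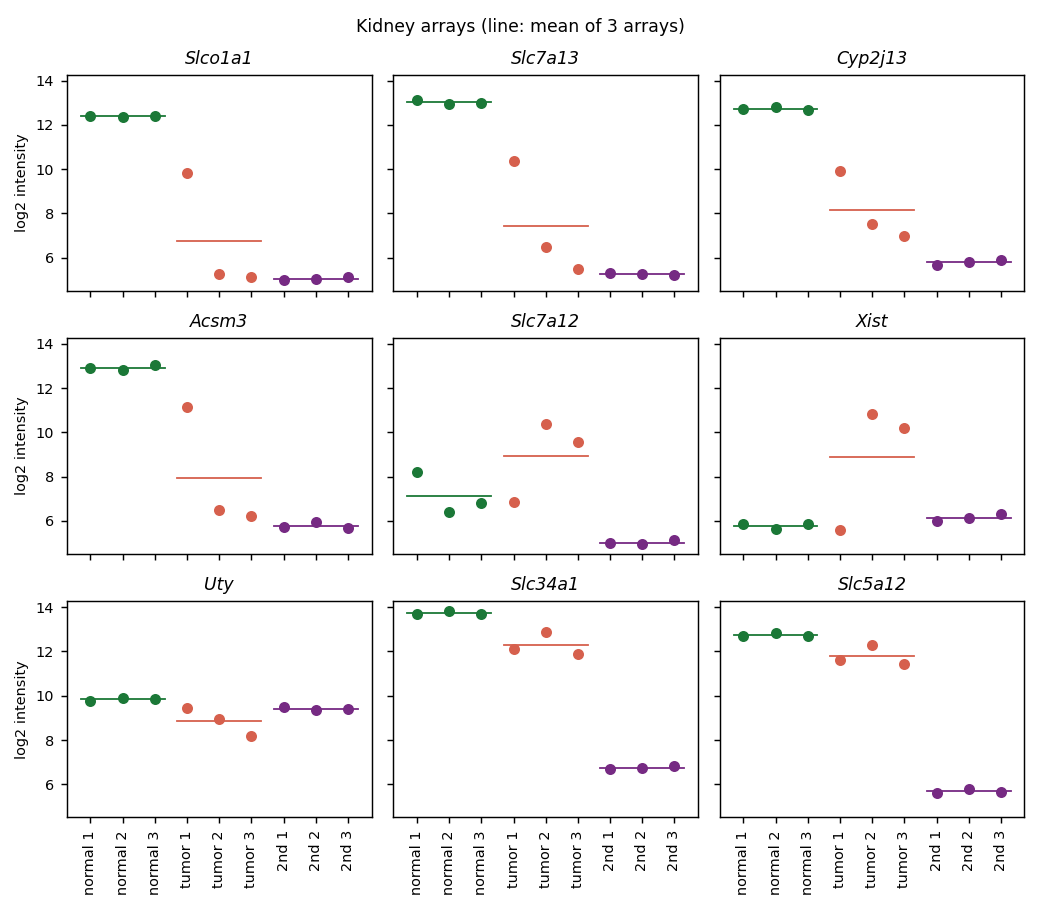
Log2 intensity (vertical axis) of 9 genes on the 9 kidney arrays, with the mean of each group of 3 as a line. Slco1a1, Slc7a13, Cyp2j13 and Acsm3 are higher in tumor 1 than in tumors 2 and 3, Xist and Slc7a12 are lower in tumor 1, and Slc34a1 and Slc5a12 are highest in tumor 2. The female-biased Cyp4a14, highest in tumor 1, is not shown.

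Other genes of the same cells, from lists kept apart from the 36, were mostly lower too, against 28.1% of all genes lower and 21.7% higher. Of 28 further proximal tubule transporters 24 fell and 1 rose (median -1.98), with the largest falls in Slc5a8, a monocarboxylate carrier (-2.98 ± 0.43, adjusted p = 7.54e-05), and Slc22a7, an organic anion carrier (-2.71 ± 0.23, adjusted p = 1.22e-06). Of 19 brush border and endocytosis genes 16 fell (median -1.54), led by the trehalose-splitting enzyme Treh (-2.46 ± 0.45) and the dipeptidase Dpep1 (-2.33 ± 0.51). Of 22 metabolic genes 19 fell (median -1.89). All 8 measured regulators fell (median -1.70), with Nr1h4, the bile acid receptor, at -1.89 ± 0.38 and Ppargc1a, a driver of mitochondrial genes, at -1.89 ± 0.43. Of 11 injury and dedifferentiation genes 9 rose, led by Havcr1, the injury marker of this segment (3.72 ± 0.46, adjusted p = 2.40e-05), and Krt20 (3.15 ± 0.54, adjusted p = 0.000333). Havcr1 read 12.17, 11.95 and 9.70 in tumors 1 to 3, lowest in tumor 3, where the transporters were lowest as well.

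Markers of other cell types also differed in the kidney tumors, against the same shares of all genes, and their part in the fall was not tested. Loop of Henle and distal tubule markers fell in 6 of 9 and collecting duct markers in 10 of 11 (medians -1.66 and -1.86, close to the -1.87 of the proximal tubule genes). Summed intensities of the loop and distal markers were 37739 to 42754 in normal kidneys and 10958 to 23125 in kidney tumors. Myeloid markers rose in 9 of 10 and fell in 1, with sums of 3728 to 4434 in normal kidney and 12163 to 13409 in the tumors. Podocyte markers fell in 4 of 6 and rose in 2, and endothelial markers fell in 5 of 10 and rose in 0 (medians -0.64 and -0.84). Of 8 fibroblast markers 3 rose, and all 5 measured cycling genes rose.

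Secondary kidney tumors had almost no proximal tubule signal. All 36 genes were lower than in normal kidney and 0 were higher, against 38.7% and 29.9% of all genes, with a median change of -5.99 (-0.12 over all genes) and no overlap between arrays in any of the 36 (46.2% of all genes do not overlap in that direction). The fall was at least 2-fold in all 36, and with the 9 kidney arrays alone all 36 were again lower (41.2% of all genes). Median levels were 1.51%, 1.67% and 1.64% of normal in secondary tumors 1 to 3. Most of these values are near the low end, where differences between arrays would not be seen.

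Kap read 5.54, 5.50 and 6.02 in secondary tumors 1 to 3 against 13.83 to 13.87 in normal kidney (-8.16 ± 0.73, adjusted p = 6.33e-07), near its level on the ES cell array (5.74), so the fold is bounded by the low end of the values. Slc13a1, which did not pass in the primary tumors, read 5.20, 5.03 and 5.10 (-7.75 ± 0.42, adjusted p = 7.81e-09), and Slc34a1 read 6.68, 6.75 and 6.83 (-6.98 ± 0.61, adjusted p = 5.29e-07). The smallest change was that of Slc7a7, a carrier also found outside the kidney, which read 9.31, 9.20 and 9.03 (-2.73 ± 0.21, adjusted p = 1.51e-07). Aqp1 read 9.73, 8.42 and 8.60, highest in secondary tumor 1, which also had high Adipoq (9.87, 5.51 and 5.54). Their relation was not tested.

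Against the single ES cell array, which allows no test, 30 of 36 genes lay within 1 log2 unit in every secondary tumor, and 22 were below it in every secondary tumor. In the primary tumors, 27 of 36 exceeded it by more than 1 in every array. These counts were not made over all genes, so they cannot show a closeness to ES cells particular to this set. Many of the values lie near the low end on both sides, where small differences follow. Slc7a8 (9.70, 9.51 and 8.98 against 7.17 in ES cells), Slc4a4 (9.64, 10.10 and 9.87 against 7.53) and Lrp2 (8.92, 8.78 and 8.93 against 7.50) were the 3 that stayed over the ES cell level by more than 1 in every secondary tumor. These carriers and the receptor are also made by other epithelia.

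Compared directly, secondary tumors were lower than primary kidney tumors in 32 of 36 genes and higher in 0, against 17.4% and 18.5% of all genes, with a median difference of -3.54 (-0.07 over all genes). Arrays did not overlap in 32 of 36, against 32.6% of all genes, and 32 were lower with the 9 kidney arrays alone (21.1% of all genes). The largest differences were those of Slc13a1 (-7.31 ± 0.42), Kap (-6.86 ± 0.73) and Slc5a12 (-6.10 ± 0.55). With secondary tumors near the low end, no difference can exceed the height of the primary tumor value above that end. Azgp1 (-0.17 ± 0.29, adjusted p = 0.657), Inmt (-1.41 ± 0.60, adjusted p = 0.0851), Slco1a1 (-1.69 ± 0.91, adjusted p = 0.170) and Slc7a13 (-2.17 ± 0.89, adjusted p = 0.0749) did not pass. Each of these was already low in primary tumors 2 and 3. The call of Slc22a30 (-1.04 ± 0.29, adjusted p = 0.0145) was lost without kidney tumor 1 or 2 or secondary tumor 1, with values under 6 set to 6 (-0.47, adjusted p = 0.128) and with only the compared groups fitted (adjusted p = 0.0805). The last fit also ended the call of Aqp1 (-1.67, adjusted p = 0.0535). The call of Slc7a8 (-1.32 ± 0.39, adjusted p = 0.0190) was lost without kidney tumor 2 or secondary tumor 3.

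The other lists followed. In secondary tumors against normal kidney, 26 of 28 further transporters, 19 of 19 brush border and endocytosis genes, 21 of 22 metabolic genes and 8 of 8 regulators fell, against 38.7% of all genes. So did 9 of 9 loop and distal tubule and 11 of 11 collecting duct markers. Havcr1, high in the primary tumors, was below normal kidney in secondary tumors (-1.83, adjusted p = 0.00352). Of 8 fibroblast markers 7 rose (29.9% of all genes did), with Fn1 at 2.73 (adjusted p = 7.64e-08) and Col1a1 at 3.11 (adjusted p = 1.38e-05).

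Liver tumors gave a comparison in an organ where several of these genes are also active. Liver tumors 2 and 3, like kidney tumors 2 and 3, carried Xist signal. Its part in the liver changes and in the difference between organs was not tested. Of the 36, 12 were lower than in normal liver and 3 higher, against 30.7% and 21.5% of all genes, with a median of -0.76 (-0.13 over all genes). Without normal livers 1 and 2, 6 were lower and 4 higher (17.6% and 13.7% of all genes), with a median of -0.23. Normal liver 3 was then the only normal liver and is assumed to vary like the other groups. Without liver tumor 3, 7 were lower, and without normal liver 2, or 3, 1 was higher. Fits without 1 array called 8575 to 10860 of all genes in either direction.

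Of the 12 genes called lower in liver tumors, Slc22a30, Inmt, Slc17a3, Slc27a2, Pdzk1 and Slc13a2 were also called without normal livers 1 and 2. Slc22a30 read 10.86, 10.95 and 10.66 in normal livers and 8.57, 8.76 and 8.09 in liver tumors (-2.35 ± 0.29, adjusted p = 3.84e-05), and Inmt read 13.26, 13.32 and 13.34 against 9.48, 9.92 and 10.66 (-3.29 ± 0.60). Slc17a3 fell by 2.12 ± 0.31 and Slc27a2 by 0.92 ± 0.18. Azgp1, with a normal liver mean of 12.76, changed by -0.76 and did not pass without those livers (adjusted p = 0.205), nor did Slc17a1 and Slc6a19. Slco1a1, Slc4a4, Aqp1, Slc3a1 and Slc13a3, which also gave signal in normal liver (means of 10.39 to 12.02), did not pass in either fit. Slc5a12, Slc22a8 and Miox were also called lower, and their normal livers ran from high to low in the order 1, 2, 3 (for Slc5a12 9.37, 7.28 and 6.17). None of these 3 passed without normal livers 1 and 2 (adjusted p = 0.886, 0.565 and 0.327).

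The endocytic receptors were called higher, a call that single settings ended. Lrp2 read 9.72, 8.11 and 6.96 in normal livers and 10.37, 9.39 and 9.61 in liver tumors (1.53 ± 0.49, adjusted p = 0.0210), or 2.83 (adjusted p = 0.000178) without normal livers 1 and 2. Cubn read 8.61, 7.16 and 6.42 against 7.49, 9.70 and 9.29 (1.43 ± 0.57, adjusted p = 0.0486), or 2.41 (adjusted p = 0.0208) without those livers. For both, normal liver 1 overlapped the tumors. The call of Lrp2 was lost without normal liver 2 or 3 or liver tumor 1, and with only the compared groups fitted (adjusted p = 0.109). That of Cubn was lost without normal liver 2 or 3 or liver tumor 2 or 3, with only the compared groups fitted (adjusted p = 0.154), quantile normalization (0.0668), arrays centred on their median (0.0503), values under 6 set to 6 (0.0787) and the replicate block (0.0589). Slc7a7 rose in all 3 liver tumors (9.62, 10.30 and 9.54 against 8.94, 8.55 and 8.66, 1.10 ± 0.21, adjusted p = 0.000881). Kap was the fourth gene called higher without normal livers 1 and 2.

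Several of the 36 genes were near the low end in normal liver, such as Slc7a13 (mean 6.70) and Mep1b (6.48). A fall in liver could hardly be seen for them, so the direction of a difference between organs was largely set in advance. Azgp1, Slco1a1, Slc22a30 and Slc13a3 had room to fall there (12.76, 12.02, 10.82 and 10.47). The tumor effect was more negative in kidney than in liver for 14 of 36 genes and less negative for 0, against 9.26% and 7.54% of all genes. Without normal livers 1 and 2 the count was 15 (5.85% of all genes), with Slc34a1, Slc22a2 and Kap in place of Slco1a1 and Slc9a3.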

How the data were processed

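Total RNA of 16 mouse samples, 1 per array, was labelled with biotin and hybridised to 1-channel Affymetrix arrays, per the labels' protocols. In the table the authors deposited, each probe set has 1 linear intensity for every array. How the authors corrected background, summarised and normalized them is not given in the sources used here, and mm9 is the build named in the submitters' processing notes. Cells the authors sorted early and their methylation data were not used here.

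Intensities were put on the log2 scale with no further scaling. Of 28856 probe sets, 21789 had 1 gene symbol in the platform annotation, 1621 had several and 5446 had none. Where a gene had several such probe sets (999 genes) the brightest stood for it, giving 19938 genes, and no dim gene was removed. Different probes of a gene were not compared with one another. Limma 3.58.1 in R 4.3.3 was fitted with 1 coefficient per group over all 16 arrays (10 residual and 2.66 prior degrees of freedom), with Benjamini-Hochberg adjustment over all genes, 2-sided. Contrasts share groups: both kidney tumor contrasts use the same normal kidneys. An exact permutation test of 3 against 3 arrays cannot go below 0.1, so it was not used for calls. Errors beside changes are standard errors of the fit, which pools 1 spread per gene over all groups. For genes that vary more among the kidney tumors than in other groups, these errors and p-values understate the spread between tumors. The same script was checked on simulated data in which each gene had 1 spread for all groups. That check cannot speak to genes that vary more among the kidney tumors.

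Members and lists were chosen with earlier results of these data known. The genes named are all 36 members, sex-linked genes, and 2 genes from each list of other proximal tubule, injury, sex-biased or fibroblast genes. Those 2 are the called genes with the largest absolute change between kidney tumor and normal kidney. The remaining marker lists are given without such genes. Exceptions are marked as picked after their values were seen. Whether replicates came from different animals is not in the labels, so the p-values rest on a spread between samples that may be technical. Precision is limited by how few arrays there are. The replicate numbers of the titles did not pair samples: same-numbered kidney tumors and normal kidneys had correlations of 0.061, 0.046 and 0.056 in their deviations from the group means. Alternatives were other scalings, filters, probe set rules, fits and left-out arrays. Promoter coordinates are those of the RefSeq table (GRCm38.p6), and gene order comes from RefSeq of the same assembly.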

Additional observations from a re-analysis of the deposited data

Results flagged for a closer look

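For 14 of the 36 proximal tubule genes, the change in kidney tumors and the change in liver tumors differed by the test of that difference in the limma fit. Each was more negative in kidney, by the change in kidney tumors minus the change in liver tumors on the log2 scale. The largest were Slc7a13 at -5.12 (adjusted p = 0.0143), Slco1a1 at -4.11 (adjusted p = 0.0454), Azgp1 at -3.96 (adjusted p = 5.87e-05) and Mep1b at -3.84 (adjusted p = 4.07e-05). Slc7a13 and Mep1b were near the low end in normal liver (means of 6.70 and 6.48), so their differences mostly repeat the fall in kidney. Slco1a1 and Azgp1 were high there (12.02 and 12.76). Cubn stood at -2.85 (adjusted p = 0.0272), Lrp2 at -2.77 (adjusted p = 0.0162) and Slc22a30 at -2.77 (adjusted p = 0.000720). Slc34a3 followed at -2.33, Slc13a3 at -2.06, Slc7a8 at -2.0, Slc9a3 at -1.99, Slc7a7 at -1.96, Slc6a19 at -1.61 and Slc13a2 at -1.17. Of these, Slc34a3, Slc9a3, Slc6a19 and Slc13a2 were also low in normal liver (means of 7.51, 6.46, 7.11 and 7.03).

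Lrp2, Cubn and Slc7a7 combined a higher level in liver tumors than in normal liver with a lower one in kidney tumors than in normal kidney, although the kidney change of Lrp2 and Cubn did not pass in the fit over all arrays. Without normal livers 1 and 2, the difference was -4.08 for Lrp2 (adjusted p = 0.000275) and -3.83 for Cubn (adjusted p = 0.0143). Slco1a1 (-4.47, adjusted p = 0.131) and Slc9a3 (-2.16, adjusted p = 0.0725) no longer passed without those livers, and the other 12 did. Single arrays decided some of these calls. Of the 12 fits that left out 1 array of the compared groups, Slco1a1 passed only without kidney tumor 1 (adjusted p = 1.19e-05) and without liver tumor 3 (adjusted p = 0.0452). Cubn lost its call without any 1 of normal kidneys 1 to 3, kidney tumor 3, liver tumors 2 and 3 or normal livers 2 and 3. Slc7a8 lost its call without normal kidney 2 or 3, kidney tumor 3, liver tumor 3 or normal liver 2 or 3, and Slc9a3 without kidney tumor 2 or normal liver 3.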

How the results depend on the processing

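The fall in secondary kidney tumors kept its count of 36 in all alternatives run. Its median of -5.99 became -5.91 with quantile normalization, -6.20 with arrays centred on their median, -5.89 with values under 6 set to 6 and -6.10 without normal kidney 2 and normal liver 1, and -6.10 to -5.96 on leaving out 1 array. Against primary tumors the median of -3.54 became -3.63 with centring, -4.58 without kidney tumors 2 and 3, and -3.96 to -3.38 without 1 array.

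Without kidney tumors 2 and 3, kidney tumors had 19 genes lower than normal kidney and 5715 of all genes were called (9922 otherwise), Slc6a18 and Slc13a1 stood at 0.32 and 0.052, and 9 genes differed between the organs' tumor effects (1692 of all genes, 3350 otherwise). Leaving out 1 array, 27 to 29 were lower in kidney tumors, where 8373 to 10040 of all genes were called in either direction.

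Genes lower in liver tumors numbered 20 with array weights, 7 without normal kidney 2 and normal liver 1, 6 without normal livers 1 and 2 and 7 to 16 without 1 array, and genes higher numbered 1 with only the groups compared and 1 to 3 without 1 array. Without 1 array, 8575 to 10860 of all genes were called in liver tumors and 2534 to 4573 for the difference between organs, in either direction. Counts of these genes given without a share of all genes in the same fit describe only the genes counted. The median of -0.76 in liver tumors became -0.44 without normal kidney 2 and normal liver 1, -0.23 without normal livers 1 and 2 and -1.01 to -0.44 without 1 array. Between normal organs the median of 4.16 became 4.44, 4.66 and 3.64 to 4.50 in the same order. Without normal livers 1 and 2, 6249 of all genes were called in liver tumors (10419 otherwise) and 2168 for the difference between organs, which array weights raised to 5209, and 10 to 21 genes differed between organs without 1 array.

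Signs of 2 genes turned on single livers or tumors. Kap, at -0.04 in liver tumors, became 0.71 without normal kidney 2 and normal liver 1 and 2.05 (adjusted p = 0.0328) without normal livers 1 and 2, and -1.09 to 0.71 on leaving out 1 array, with its sign turned in 3 of these (0.26 to 0.71). The difference between organs for Slc34a1, at 0.05, became -0.14 without kidney tumors 2 and 3, -0.78 without normal kidney 2 and normal liver 1, -1.73 (adjusted p = 0.0223) without normal livers 1 and 2, and -0.83 to 0.94 on leaving out 1 array (-0.83, -0.24 and -0.15 without normal liver 1, kidney tumor 2 and liver tumor 3). Genes not called with or without those livers changed sign in 9 of 360 values for liver tumors (7 of 20 genes) and 30 of 475 for the difference between organs (9 of 19 genes), and their values are not reported. The causes were not tested. The estimate of the array weights stopped before reaching its tolerance. With the replicate block, 30 genes were lower in kidney tumors, Lrp2 passed (adjusted p = 0.0386) and Cubn no longer passed in liver tumors (adjusted p = 0.0589). Without detection calls, levels near the low end limit how large a fall can be seen.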
